A study of Drosophila melanogaster with 9 samples.

Results

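The 124 genes described here are Drosophila genes listed under a CG number and no other name, out of 16837 gene symbols in the deposited tables, of which 6534 are CG-named. They were chosen on their measured levels. The mean was at least 5 TPM (transcript abundance scaled to a fixed library total) in Chd1-deficient and in elav>Chd1 libraries, and each of these means was at least 2 times the wild-type mean. The ratio of the Chd1-deficient mean to the elav>Chd1 mean lay between 0.67 and 1.5, and the highest wild-type library lay below the lowest of the other 6 libraries. All 3 comparisons of genotypes entered this choice, so the levels and ratios of these genes are a description and carry no test.

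Per the labels, RNA came from heads of virgin Drosophila melanogaster females aged 10 days, with 3 libraries for each of 3 genotypes. The Chd1-deficient flies are homozygous for a deletion of Chd1. The elav>Chd1 flies carry a UAS-Chd1 transgene under elav-Gal4, a driver active in all neurons, and the wild-type flies are titled Chd1[WT/WT]. The sample labels call the elav>Chd1 genotype rescued, whereas in the series text rescued flies stand as a genotype beside elavGal4>UAS-Chd1 and no wild type is named, and neither source says whether the deletion is present in the elav>Chd1 genotype. Separate collections of flies for the 3 libraries of a genotype are not stated, so spread and p-values below cover these libraries alone and can be technical in origin.

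Chd1 encodes a chromodomain helicase that moves and spaces nucleosomes at transcribed genes. A CG number is the identifier that the fly genome annotation gives to a predicted gene, and it remains the symbol until the gene is studied and named. Such genes include secreted proteases, carriers of small lipophilic molecules and metabolic enzymes of the gut, fat body and cuticle, as well as many genes with no assigned function. For 98 of the 124 genes the reference tables used here gave no further name, and 26 had an alternative name in RefSeq; for 8 of these the current symbol is no longer a CG number.

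Chd1 itself had 18.2, 19.9 and 20.2 TPM in Chd1-deficient libraries, 63.7, 63.1 and 63.7 TPM in elav>Chd1 libraries and 104, 108 and 92.7 TPM in wild-type libraries. The Chd1-deficient libraries were lowest, the elav>Chd1 libraries intermediate and the wild-type libraries highest, with no overlap between groups. The mean of elav was 3.56 TPM in Chd1-deficient, 1.92 TPM in elav>Chd1 and 1.11 TPM in wild-type libraries. For the gene w the means were 1.86, 10.1 and 13.9 TPM in the same order. Whether the genotypes differ in genetic background was not tested. Sequencing depth is unknown because the files hold TPM; the number of genes with 1 TPM or more was 11142 to 11220 in Chd1-deficient, 9743 to 9787 in elav>Chd1 and 9159 to 9253 in wild-type libraries. The labelled tissue and sex are in doubt. The 24 ovary and eggshell transcripts listed summed to 32286 to 34336 TPM in Chd1-deficient, 40448 to 42857 TPM in elav>Chd1 and 30962 to 36549 TPM in wild-type libraries. Of 25 listed male transcripts 21 were found, and their sum was 520 to 532 TPM in Chd1-deficient, 16.9 to 21.1 TPM in elav>Chd1 and 58.9 to 66.6 TPM in wild-type libraries.

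Together the 124 genes made up 4549, 4544 and 4574 TPM of the Chd1-deficient libraries, 4097, 4018 and 4071 TPM of the elav>Chd1 libraries and 1405, 1386 and 1445 TPM of the wild-type libraries. Their share of all transcripts was thus 0.454% to 0.457% in Chd1-deficient, 0.402% to 0.410% in elav>Chd1 and 0.139% to 0.145% in wild-type libraries. In RNA from whole tissue, a change in the number of cells of a type and a change in RNA per cell cannot be told apart. The median gene stood at 2.88 times its wild-type mean in Chd1-deficient libraries and at 2.61 times in elav>Chd1 libraries. Taking for each gene the smaller of its 2 ratios to wild type, the median was 2.50, with 34 genes at 3 or more, 12 at 4 or more and 8 at 5 or more. All 124 passed the filter on low values, as their choice required.

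**Figure D1:**
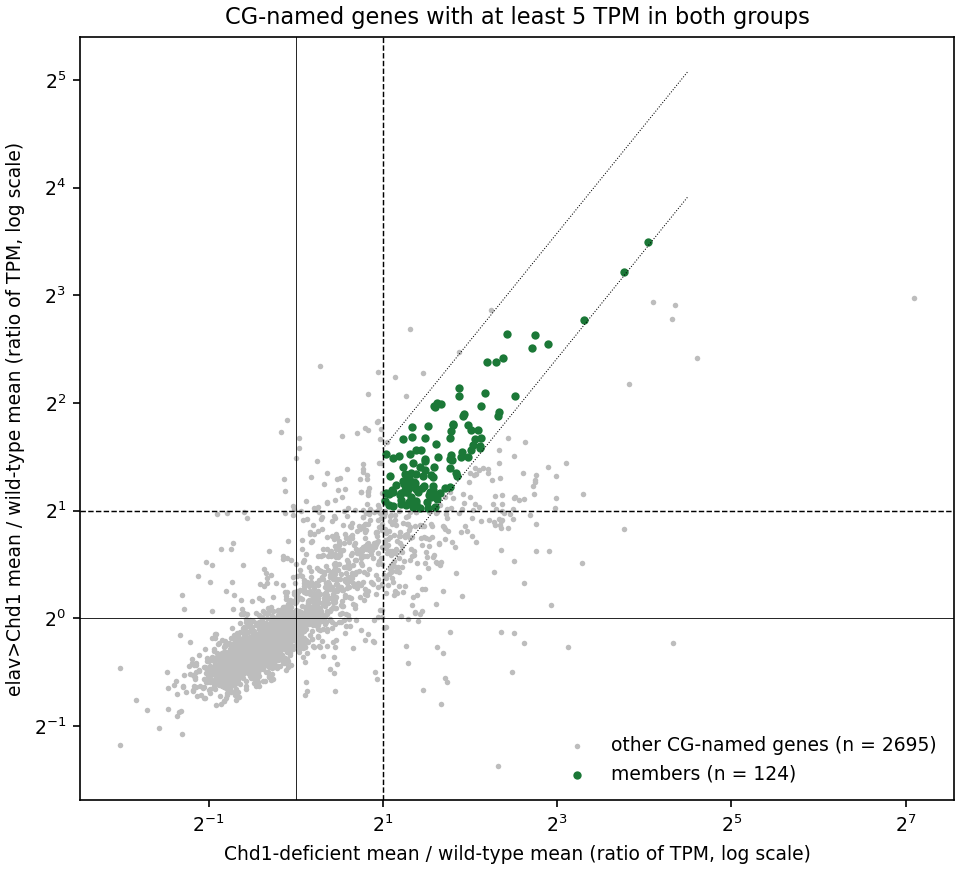
Ratio of the Chd1-deficient mean to the wild-type mean (x axis) against the ratio of the elav>Chd1 mean to the wild-type mean (y axis), both on log scales, for CG-named genes with at least 5 TPM in both genotypes. The 124 chosen genes (green) lie above 2 on both axes and between the dotted lines, which mark the limits of 0.67 and 1.5 for the ratio between the 2 genotypes.

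The gene with the largest smaller ratio was CG7214, at 2L:7743682-7744839 (BDGP6.54, minus strand), which had 294, 286 and 286 TPM in Chd1-deficient libraries, 209.9, 190.1 and 194 TPM in elav>Chd1 libraries and 17.2, 16.9 and 18.6 TPM in wild-type libraries. Its means were 16.4 times the wild-type mean in Chd1-deficient libraries and 11.3 times in elav>Chd1 libraries, and the lowest of its 6 Chd1-deficient and elav>Chd1 libraries held 10.2 times the level of the highest wild-type one. CG15515 (3R:29905464-29906448) had 21.6, 23.8 and 23.3 TPM in Chd1-deficient libraries, 18.2, 12.2 and 16.7 TPM in elav>Chd1 libraries and 1.75, 0.577 and 2.74 TPM in wild-type libraries. Relative to the mean, its wild-type level varied most among the 10 genes that led this order, with an SD of 1.08 TPM around a mean of 1.69 TPM, and its means were 13.6 times the wild-type mean in Chd1-deficient libraries and 9.31 times in elav>Chd1 libraries.

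CG42565 (2R:22657901-22661389) had 40.7, 39.4 and 36.6 TPM in Chd1-deficient libraries, 25.7, 27.0 and 27.7 TPM in elav>Chd1 libraries and 3.30, 3.50 and 5.01 TPM in wild-type libraries, which put its means at 9.88 times the wild-type mean in Chd1-deficient libraries and 6.81 times in elav>Chd1 libraries. Its annotated span overlaps CG13511 and CG13510 on the same strand, so reads could be divided between them. CG34172, now named COX7AL2, had 138, 131 and 148 TPM in Chd1-deficient libraries, 122, 133 and 131 TPM in elav>Chd1 libraries and 25.7, 19.0 and 17.6 TPM in wild-type libraries. This gene encodes a protein named after subunit 7A of cytochrome c oxidase, the last complex of the mitochondrial respiratory chain, and its means were 6.70 times the wild-type mean in Chd1-deficient libraries and 6.20 times in elav>Chd1 libraries.

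CG10154 had 15.3, 16.2 and 15.2 TPM in Chd1-deficient libraries, 11.1, 12.5 and 12.9 TPM in elav>Chd1 libraries and 2.57, 1.84 and 1.86 TPM in wild-type libraries. CG4000 was more abundant, with 180.1, 169.6 and 171 TPM in Chd1-deficient libraries, 152, 144 and 157 TPM in elav>Chd1 libraries and 23.6, 26.5 and 29.7 TPM in wild-type libraries. All groups were separate in CG10154 and CG4000, with Chd1-deficient libraries highest. CG14257 and CG7900 showed the opposite order of the 2 genotypes or none. CG14257 had 7.79, 8.70 and 6.89 TPM in Chd1-deficient libraries, 8.94, 9.05 and 9.10 TPM in elav>Chd1 libraries and 1.41, 1.28 and 1.67 TPM in wild-type libraries, and its elav>Chd1 libraries were highest. CG7900 had 4.81, 5.74 and 5.23 TPM in Chd1-deficient libraries, 5.53, 5.53 and 5.23 TPM in elav>Chd1 libraries and 1.06, 1.05 and 0.939 TPM in wild-type libraries, and the Chd1-deficient and elav>Chd1 libraries overlapped.

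CG32523, listed in RefSeq as the serine protease SP50, had 5.67, 6.47 and 6.19 TPM in Chd1-deficient libraries, 6.67, 5.36 and 7.38 TPM in elav>Chd1 libraries and 0.810, 1.501 and 1.42 TPM in wild-type libraries. CG13155 had 6.55, 8.14 and 8.29 TPM in Chd1-deficient libraries, 7.87, 9.15 and 9.18 TPM in elav>Chd1 libraries and 2.47, 1.42 and 1.12 TPM in wild-type libraries. These were the last of the 10 genes in the order, and in both the Chd1-deficient and elav>Chd1 libraries overlapped while all 6 lay above every wild-type library.

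**Figure D2:**
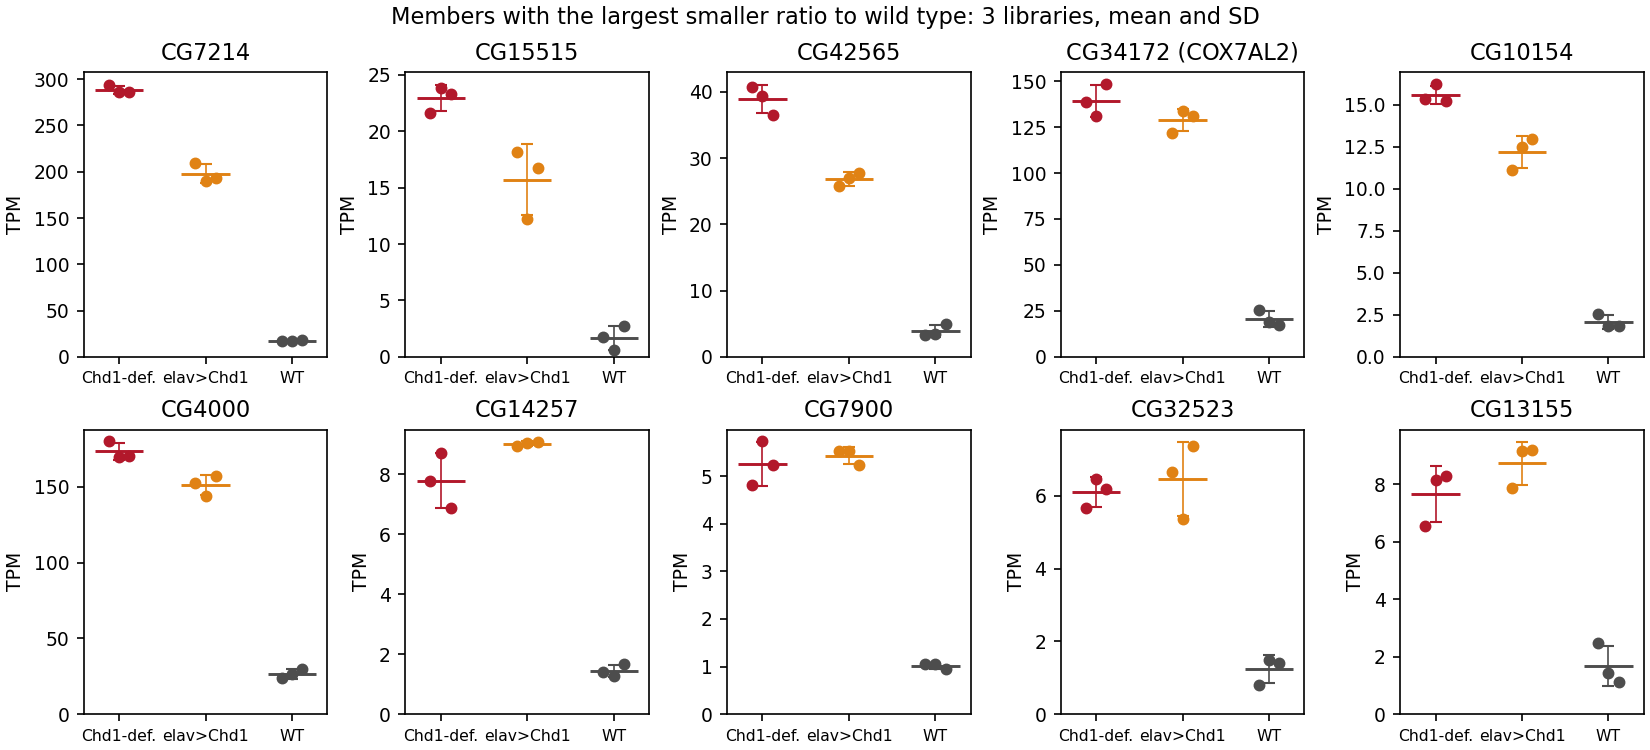
TPM in each library (points), group mean (line) and SD (bar) of the 10 genes with the largest smaller ratio to wild type, in Chd1-deficient, elav>Chd1 and wild-type libraries (n = 3 each). In all 10 panels the 3 wild-type libraries lie below the other 6, while Chd1-deficient libraries lie above elav>Chd1 libraries in some panels and among them or below them in others.

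Levels varied widely among the 124 genes. The group mean ranged from 5.26 to 288.6 TPM in Chd1-deficient libraries (median 17.7), from 5.07 to 203.9 TPM in elav>Chd1 libraries (median 15.6) and from 1.01 to 97.7 TPM in wild-type libraries (median 5.97). Averaged over the 6 Chd1-deficient and elav>Chd1 libraries, 90 genes reached 10 TPM, 21 reached 50 TPM and 11 reached 100 TPM. Among the 6 with the highest such average were CG7214 and CG4000 and 4 genes with smaller ratios of 2.04 to 2.53.

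CG3906, the second most abundant of them in Chd1-deficient libraries, had 266, 259 and 260.1 TPM in Chd1-deficient libraries, 199, 201 and 198 TPM in elav>Chd1 libraries and 92.8, 93.1 and 107 TPM in wild-type libraries, with means 2.68 times the wild-type mean in Chd1-deficient libraries and 2.04 times in elav>Chd1 libraries. CG43897 had 233, 242 and 240.2 TPM in Chd1-deficient libraries, 207, 204 and 201 TPM in elav>Chd1 libraries and 82.9, 82.3 and 77.8 TPM in wild-type libraries, with means 2.94 times the wild-type mean in Chd1-deficient libraries and 2.52 times in elav>Chd1 libraries. The Ilp5 gene lies on the other strand within its span. CG42502 had 197, 209 and 206 TPM in Chd1-deficient libraries, 197, 199 and 198 TPM in elav>Chd1 libraries and 76.3, 75.9 and 82.4 TPM in wild-type libraries, and its span overlaps CG10570 on the same strand. CG4783 had 147, 145 and 146 TPM in Chd1-deficient libraries, 151, 136 and 148 TPM in elav>Chd1 libraries and 61.0, 49.0 and 71.0 TPM in wild-type libraries. The Chd1-deficient libraries of CG42502 and of CG4783 overlapped the elav>Chd1 ones.

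Serine proteases cut other proteins, and in insects they digest food in the gut and carry signals in immune and developmental cascades, whereas their homologues have the same fold without the catalytic residues. RefSeq lists 6 of the genes as serine proteases (SP) and 2 as serine protease homologues (SPH). The most abundant was the homologue CG3088 (SPH188), with 140.0, 135 and 142 TPM in Chd1-deficient libraries, 95.4, 94.5 and 97.3 TPM in elav>Chd1 libraries and 32.2, 31.1 and 32.6 TPM in wild-type libraries, and means 4.35 times the wild-type mean in Chd1-deficient libraries and 2.99 times in elav>Chd1 libraries. Next came CG9676 (SP99), with 84.6 ± 1.22 TPM in Chd1-deficient, 70.3 ± 2.49 TPM in elav>Chd1 and 24.6 ± 1.15 TPM in wild-type libraries (mean ± SD, n = 3 libraries per group, as below). In both the Chd1-deficient libraries lay above all elav>Chd1 libraries.

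The order of the genotypes was turned round in CG30371 (SP80), which had 17.9, 17.2 and 16.9 TPM in Chd1-deficient libraries, 24.8, 22.5 and 23.4 TPM in elav>Chd1 libraries and 6.72, 6.45 and 7.45 TPM in wild-type libraries. CG31267 (SPH146) likewise averaged 6.75 ± 0.538 TPM in Chd1-deficient, 9.12 ± 1.03 TPM in elav>Chd1 and 2.88 ± 0.0355 TPM in wild-type libraries. CG17475 (SP131) averaged 13.6 ± 0.708 TPM in Chd1-deficient, 12.0 ± 1.10 TPM in elav>Chd1 and 5.47 ± 0.763 TPM in wild-type libraries. CG7829 (SP136) averaged 13.0 ± 1.20 TPM in Chd1-deficient, 9.11 ± 0.639 TPM in elav>Chd1 and 4.22 ± 0.358 TPM in wild-type libraries. CG1299 (SP18) averaged 6.66 ± 0.692 TPM in Chd1-deficient, 6.67 ± 0.324 TPM in elav>Chd1 and 2.70 ± 0.281 TPM in wild-type libraries, with nearly the same level in the 2 genotypes set against wild type. These genes differed in which genotype was higher, with a ratio of Chd1-deficient to elav>Chd1 means from 0.735 in CG30371 to 1.45 in CG3088.

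The relatives of these genes were measured as well. The families named in this and the next paragraphs were picked after the 124 genes were known. A CG-named relative that met the thresholds would be one of the 124, so whether relatives met them is read only from those with other names. Of 249 other genes in the files with an SP or SPH name numbered no higher than that of aqrs, above which such names belonged to unrelated genes, 135 passed the filter of at least 1 TPM in 3 libraries. Against wild type, 110 of these were called higher and 11 lower in Chd1-deficient libraries, where 42.9% of all 11094 genes tested were called higher and 46% lower (limma on log2(TPM + 0.5), Benjamini-Hochberg adjusted p under 0.05). In elav>Chd1 libraries 86 were called higher and 18 lower, where 30.6% of all genes were called higher and 47.3% lower. The filter admits genes through their Chd1-deficient libraries alone. With 1 of these libraries left out at a time, 120 to 122 of the 135 were tested. In Chd1-deficient libraries 94 to 96 were then called higher and 11 lower, beside 35.9% to 36.1% and 49.1% to 50.2% over all genes. The median log2 fold change of the 135 was 0.78 for Chd1-deficient and 0.46 for elav>Chd1 against wild type, against -0.05 and -0.15 over all genes tested. Of the 135, 55 have other names than a CG number, and of these Jon44E and grass met the thresholds used for the 124 genes. Jon44E, a gut protease, had 40.9, 39.6 and 37.5 TPM in Chd1-deficient libraries, 32.5, 27.2 and 28.7 TPM in elav>Chd1 libraries and 4.15, 4.09 and 5.07 TPM in wild-type libraries.

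Juvenile hormone binding proteins carry juvenile hormone, a lipophilic regulator of growth and reproduction, in insect haemolymph, and farnesol is an intermediate on the way to that hormone. CG14661 (Jhbp3) had 60.2, 60.1 and 61.1 TPM in Chd1-deficient libraries, 59.2, 58.7 and 61.2 TPM in elav>Chd1 libraries and 23.2, 20.7 and 21.0 TPM in wild-type libraries. The 2 genotypes overlapped in CG14661, at 2.79 times the wild-type mean in Chd1-deficient libraries and 2.76 times in elav>Chd1 libraries. CG13618 (Jhbp12) averaged 5.27 ± 0.585 TPM in Chd1-deficient, 6.02 ± 0.734 TPM in elav>Chd1 and 1.88 ± 0.259 TPM in wild-type libraries. CG15739, listed as a farnesyl pyrophosphatase (FPPase), which frees farnesol from its pyrophosphate, averaged 8.75 ± 0.354 TPM in Chd1-deficient, 7.27 ± 0.691 TPM in elav>Chd1 and 2.93 ± 0.307 TPM in wild-type libraries. CG40486, listed under the name FOHSDR of the farnesol dehydrogenases, which oxidise it, had 10.8, 8.99 and 9.57 TPM in Chd1-deficient libraries, 13.0, 10.5 and 13.2 TPM in elav>Chd1 libraries and 2.99, 3.17 and 3.05 TPM in wild-type libraries.

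Among 11 other tested genes with a juvenile hormone binding protein name, 8 were called higher and 1 lower in Chd1-deficient libraries, and 9 higher and 2 lower in elav>Chd1 libraries, both against wild type. All 4 other tested genes with a farnesol enzyme name were called higher in both comparisons. Only 2 of these 15, to and antdh, have other names than a CG number, and neither met the thresholds. Beside these counts, 42.9% of all genes tested were called higher and 46% lower in Chd1-deficient libraries. In elav>Chd1 libraries the shares were 30.6% and 47.3%. CG5867 (Jhbp family) averaged 42.0 ± 0.242 TPM in Chd1-deficient, 21.5 ± 1.93 TPM in elav>Chd1 and 8.84 ± 0.742 TPM in wild-type libraries, a log2 fold change of 2.19 for Chd1-deficient and 1.24 for elav>Chd1 against wild type (limma, adjusted p = 1.7e-09 and 3.6e-07). The farnesol enzyme gene antdh differed more in elav>Chd1 libraries and averaged 2.42 ± 0.324 TPM in Chd1-deficient, 9.55 ± 0.599 TPM in elav>Chd1 and 0.786 ± 0.316 TPM in wild-type libraries (log2 fold change against wild type 1.20 in Chd1-deficient and 2.99 in elav>Chd1). Its wild-type level alone would not have passed the filter, so these changes are given without a test.

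Enzymes of lipid and carnitine metabolism were represented by 3 genes. CG3961 (ACSL1), a long-chain acyl-CoA synthetase that activates fatty acids, averaged 21.3 ± 0.848 TPM in Chd1-deficient, 14.4 ± 0.773 TPM in elav>Chd1 and 7.02 ± 1.08 TPM in wild-type libraries, and its ratio of 1.48 between the 2 genotypes was the highest of the 124. CG5065 (FAR1), a fatty acyl-CoA reductase that makes fatty alcohols, averaged 19.3 ± 0.891 TPM in Chd1-deficient, 15.4 ± 0.648 TPM in elav>Chd1 and 7.39 ± 0.358 TPM in wild-type libraries. CG5321 (gamma-BBH), named for the hydroxylase of the last step of carnitine synthesis, averaged 7.40 ± 0.869 TPM in Chd1-deficient, 7.70 ± 0.805 TPM in elav>Chd1 and 3.42 ± 0.326 TPM in wild-type libraries. The lowest ratio to wild type among the 3 genes was 2.05, in elav>Chd1 libraries for CG3961.

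CG12398, a gene with a GMC oxidoreductase name, averaged 10.6 ± 0.523 TPM in Chd1-deficient, 9.52 ± 0.222 TPM in elav>Chd1 and 4.57 ± 0.137 TPM in wild-type libraries. CG17029 (IMP), named for inositol monophosphatase, averaged 30.7 ± 1.75 TPM in Chd1-deficient, 29.1 ± 1.44 TPM in elav>Chd1 and 14.1 ± 1.24 TPM in wild-type libraries. CG7378 (MKP-like), named for phosphatases of MAP kinases, averaged 40.2 ± 1.52 TPM in Chd1-deficient, 34.3 ± 0.750 TPM in elav>Chd1 and 15.2 ± 0.680 TPM in wild-type libraries. CG17029 lies opposite brm and CG12398 opposite Flo2, each on the other strand.

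CG4461 (Hsp20), a small heat shock protein of the class that keeps unfolded proteins soluble, had 104, 104 and 101 TPM in Chd1-deficient libraries, 74.9, 72.2 and 74.5 TPM in elav>Chd1 libraries and 24.4, 27.0 and 27.2 TPM in wild-type libraries, with means 3.93 times the wild-type mean in Chd1-deficient libraries and 2.82 times in elav>Chd1 libraries. The other tested small heat shock genes numbered 5, of which 4 have other names than a CG number, and none of these 4 met the thresholds. In Chd1-deficient libraries 3 of the 5 were called higher and 2 lower than in wild type, and in elav>Chd1 libraries 1 was called higher and 4 lower. The shares over all genes tested were 42.9% higher and 46% lower in Chd1-deficient, and 30.6% and 47.3% in elav>Chd1 libraries. Hsp26 averaged 815 ± 18.7 TPM in Chd1-deficient, 1723 ± 20.9 TPM in elav>Chd1 and 2069 ± 41.7 TPM in wild-type libraries, with a log2 fold change of -1.34 for Chd1-deficient and -0.26 for elav>Chd1 against wild type (limma, adjusted p = 5.5e-11 and 1.7e-05).

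Of 19 other tested genes with a cytochrome c oxidase name, as CG34172 has, 18 were called higher and 0 lower in Chd1-deficient libraries, and 10 higher and 5 lower in elav>Chd1 libraries, both against wild type by limma. Over all genes tested, 42.9% were called higher and 46% lower in Chd1-deficient libraries, and 30.6% and 47.3% in elav>Chd1 libraries. The filter admits genes through their Chd1-deficient libraries alone. With 1 of these left out at a time, 14 were tested for Chd1-deficient against wild type, 13 higher and 0 lower. With elav>Chd1 and wild-type libraries alone, 13 were tested, 10 higher and 0 lower. Of the 19, 14 have other names than a CG number, and none of these met the thresholds. COX7AL averaged 4.76 ± 0.940 TPM in Chd1-deficient, 0.164 ± 0.114 TPM in elav>Chd1 and 0.491 ± 0.143 TPM in wild-type libraries. It passed the filter of 1 TPM through its Chd1-deficient libraries alone, so its values are given without a test. COX5A, an abundant subunit gene, averaged 1440.0 ± 48.9 TPM in Chd1-deficient, 1221 ± 9.51 TPM in elav>Chd1 and 930.2 ± 81.0 TPM in wild-type libraries.

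CG2010 (FipoQ) encodes an F-box protein, the part of SCF ubiquitin ligases that binds substrates, and had 14.1, 14.2 and 13.2 TPM in Chd1-deficient libraries, 10.0, 10.2 and 10.0 TPM in elav>Chd1 libraries and 2.36, 2.62 and 2.24 TPM in wild-type libraries, with means 5.73 times the wild-type mean in Chd1-deficient libraries and 4.18 times in elav>Chd1 libraries. CG30285 (BaraC) belongs to the Baramicin family, named after an antifungal peptide gene of the fly immune response, and had 12.5, 13.1 and 11.8 TPM in Chd1-deficient libraries, 8.46, 9.06 and 8.74 TPM in elav>Chd1 libraries and 2.54, 3.91 and 2.18 TPM in wild-type libraries. CG13920, listed as NACHO, which in mammals assists the assembly of nicotinic acetylcholine receptors, had 18.3, 17.98 and 18.2 TPM in Chd1-deficient libraries, 12.2, 13.6 and 13.2 TPM in elav>Chd1 libraries and 5.21, 5.26 and 4.80 TPM in wild-type libraries. In all 3 the Chd1-deficient libraries lay above the elav>Chd1 libraries, which lay above the wild-type libraries. The last 3 with names were CG9572, CG8740 and CG11073. CG9572 (aspr) averaged 28.6 ± 0.559 TPM in Chd1-deficient, 22.4 ± 0.802 TPM in elav>Chd1 and 6.69 ± 0.802 TPM in wild-type libraries. CG8740 (blo) averaged 5.91 ± 0.272 TPM in Chd1-deficient, 5.40 ± 0.224 TPM in elav>Chd1 and 1.91 ± 0.161 TPM in wild-type libraries. CG11073 (flap) averaged 14.9 ± 0.602 TPM in Chd1-deficient, 11.9 ± 0.849 TPM in elav>Chd1 and 4.30 ± 0.0833 TPM in wild-type libraries.

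Across the 124 genes the 2 genotypes set against wild type were close, as the choice required, but not evenly so. The ratio of Chd1-deficient to elav>Chd1 means had a median of 1.08 and ran from 0.710 to 1.48, with 80 genes between 0.8 and the inverse of 0.8. The Chd1-deficient mean was the higher in 85 genes and the elav>Chd1 mean in 39. All Chd1-deficient libraries lay above all elav>Chd1 libraries in 55 genes (37.5% of all genes tested did so), all elav>Chd1 libraries lay above all Chd1-deficient ones in 18 genes (39.6% of all genes tested), and the libraries overlapped in 51. Since the allowed ratio was part of the choice, these counts are given as a description.

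Libraries of a genotype varied slightly more in these genes than in all genes tested. The median coefficient of variation was 4.85% in Chd1-deficient, 5.22% in elav>Chd1 and 8.47% in wild-type libraries, against 4.64%, 3.996% and 7.80% over all genes that passed the filter. Measured as the lowest of the 6 Chd1-deficient and elav>Chd1 libraries over the highest wild-type library, the gap had a median of 2.15 and ran from 1.12, in CG34446, to 10.2. CG34446 had 9.09, 9.01 and 5.26 TPM in Chd1-deficient libraries, 7.11, 7.20 and 7.53 TPM in elav>Chd1 libraries and 3.15, 1.82 and 4.71 TPM in wild-type libraries, and its lowest Chd1-deficient library lay near its highest wild-type library.

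The choice was reached in steps. Of 2819 CG-named genes with at least 5 TPM in both genotypes, 378 reached 2 times wild type in Chd1-deficient libraries, 249 did so in elav>Chd1 libraries and 189 did so in both. The allowed ratio removed 58 genes that were higher in Chd1-deficient libraries and 7 that were higher in elav>Chd1 libraries, which left 124, and none of these overlapped wild type. Just inside the limit stood CG5958, CG14777 and CG3906 with smaller ratios of 2.04 each, and just outside stood CG43156, CG6891 and CG15152 with 1.99 each. A further 143 CG-named genes met every other condition with a smaller ratio between 1.5 and 2.

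The same thresholds, turned round to ask for a wild-type mean of at least 5 TPM and at least 2 times each of the other means, were met by 5 genes of any name, 0.0451% of those tested, against 243 (2.19%) for the upward thresholds. Of the 5, CG13375, CG18278 and CG32816 are CG-named, and Ir76a and the RNA gene snRNA:U4atac are not. CG18278 was the most abundant, with 31.0, 28.2 and 29.5 TPM in Chd1-deficient libraries, 42.6, 43.2 and 44.3 TPM in elav>Chd1 libraries and 90.2, 90.1 and 83.1 TPM in wild-type libraries. Without thresholds the balance was the other way, since all 6 libraries lay above all wild-type libraries in 27.3% of genes tested and below them in 39.8%.

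A CG number was not required to meet the upward thresholds. They were met by 119 genes with other names, or 1.81% of 6570 such genes tested, and by 2.74% of 4524 CG-named genes tested. Among genes with at least 5 TPM in both genotypes the shares were 2.43% of 4897 and 4.40% of 2819. The 119 genes had a median smaller ratio of 2.52, close to the 2.50 of the CG-named ones. They were led by ND-B8, a subunit gene of complex I of the respiratory chain, with 36.1, 29.1 and 31.2 TPM in Chd1-deficient libraries, 45.2, 37.5 and 41.2 TPM in elav>Chd1 libraries and 2.13, 3.54 and 3.05 TPM in wild-type libraries. Next came Jon44E, the lysozyme gene LysD, the mitochondrial phosphate carrier Mpcp1 and the glutathione transferase gene GstE1, with smaller ratios of 6.64, 6.18, 6.06 and 5.91.

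None of the 124 genes is on the 10 lists of tissue markers examined, and the lists differed in how far they met the same thresholds. Muscle genes met them most often, with 15 of 26, among them the actin genes Act57B and Act87E, the paramyosin gene Prm and the tropomyosin gene Tm2. Act57B had 563, 580.4 and 575 TPM in Chd1-deficient libraries, 459, 447 and 445 TPM in elav>Chd1 libraries and 130.4, 128 and 119 TPM in wild-type libraries. All 26 muscle genes were called higher than in wild type in Chd1-deficient and also in elav>Chd1 libraries (limma, adjusted p under 0.05). Over all genes tested, 42.9% were called higher in Chd1-deficient and 30.6% in elav>Chd1 libraries. The summed muscle level was 7075 to 7277 TPM in Chd1-deficient, 4928 to 5013 TPM in elav>Chd1 and 1676 to 1769 TPM in wild-type libraries, with none of the 26 at 0.

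Digestive genes of the gut met the thresholds in 4 of 43 tested, which were Jon44E, LysB, LysD and LysS, and antimicrobial peptide genes in 1 of 15, which was Def. The gut list summed to 10649.9 to 11277 TPM in Chd1-deficient, 11829 to 12293 TPM in elav>Chd1 and 5418 to 6246 TPM in wild-type libraries, with gammaTry at 0 in at least 1 library. No gene of the neuron (14), photoreceptor (14), glia (9), fat body (11), Malpighian tubule (7), male (18) or ovary (24) lists met them; numbers in parentheses are genes tested. In the neuron list 13 of 14 genes were called higher than wild type in each comparison, and the median ratio to wild type was 5.37 in Chd1-deficient and 1.98 in elav>Chd1 libraries. The male list went in opposite directions against wild type. All 18 tested genes were called higher in Chd1-deficient and all 18 lower in elav>Chd1 libraries, with can and aly at 0 in at least 1 library. Genes could pass the filter through their Chd1-deficient libraries alone, where this list was highest, which favours calls as higher there. With elav>Chd1 and wild-type libraries alone, 171 genes of all lists were tested, 117 called higher and 32 lower, against 118 and 38 of 181. Of all genes tested, 42.9% were called higher and 46% lower in Chd1-deficient libraries, and 30.6% and 47.3% in elav>Chd1 libraries. What part the muscle, gut or other tissues play in the levels of the 124 genes was not tested.

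**Figure D3:**
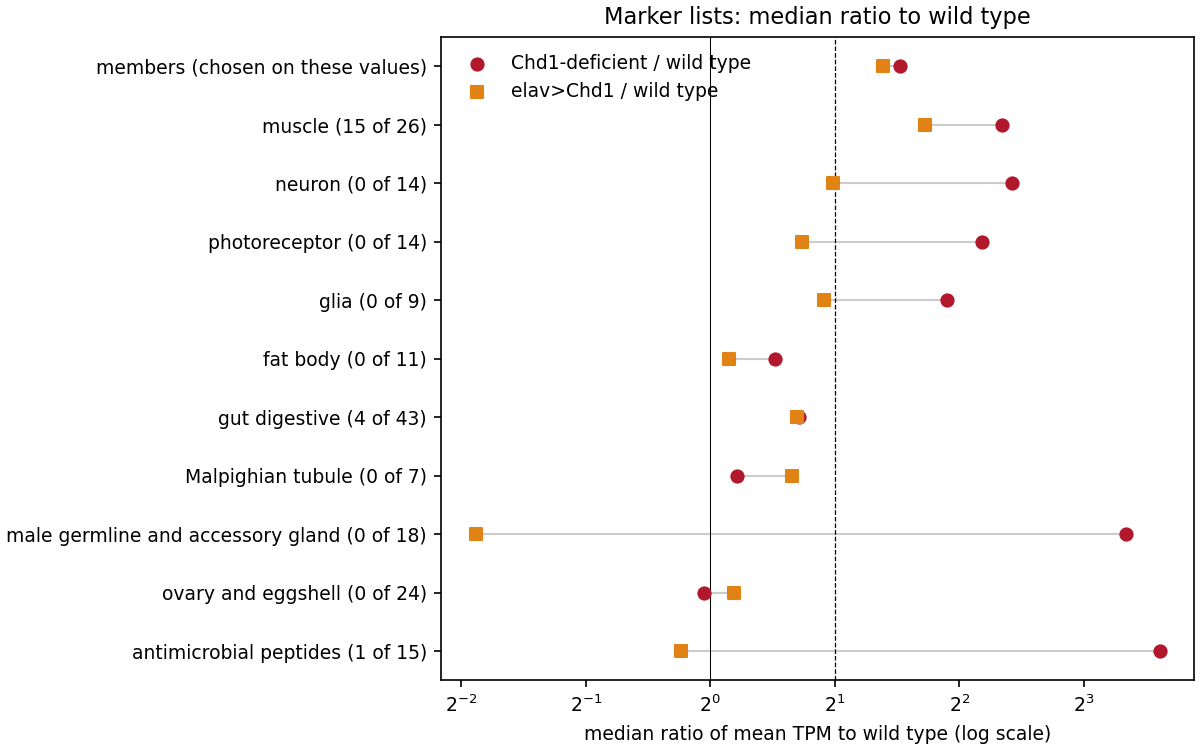
Median ratio of the group mean to the wild-type mean, on a log scale, for the 124 genes and for 10 marker lists, in Chd1-deficient (circles) and elav>Chd1 libraries (squares). In parentheses stand the genes that met the same thresholds, of those tested: 15 of 26 in the muscle list, 4 of 43 in the gut list, 1 of 15 in the antimicrobial list and 0 in the other lists, while the 124 genes were chosen on these values.

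All 124 genes are annotated as protein-coding in Ensembl release 115 of BDGP6.54, 116 under their listed symbol and 8 through a synonym. By chromosome arm, 35 lie on 3R (28.2%, against 24.7% of CG-named genes tested), 33 on 2R (26.6% against 19.8%), 21 on 2L (16.9% against 19.1%), 19 on 3L (15.3% against 19.3%) and 14 on X (11.3% against 16.8%). The remaining 2 lie on chromosome 4 (1.61% against 0.310%). The longest transcript had a median of 1234 bases, against 1505.5 in 4394 other CG-named protein-coding genes that passed the filter, and 34.7% against 27.2% were under 1000 bases. Gene spans were alike, with medians of 1858.5 and 1860.0 bases. An annotated gene overlapped 54 of the 124 (43.5%, against 50.1% of the other CG-named protein-coding genes), on the other strand in 42 and on the same strand in 17. Because the strandedness of the counting is not given, reads in such overlaps cannot be assigned with certainty. The nearest of the 124 genes to Chd1 was CG34172, at 781.65 kb on 2L.

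Of the 124 genes, 23 (18.5%) lay within 20 kb of another and formed 10 groups, 9 of them pairs. How often other genes in a set of this size lie as close was not counted. In 2 of the groups no other gene of the files lay inside the span. The largest group held 5 genes on 2R between 22647458 and 22668848, namely CG34446, CG43326, CG42565, CG42566 and CG30269, with 13 further genes of the files inside the same span. CG42565 stood out with means 9.88 times the wild-type mean in Chd1-deficient libraries and 6.81 times in elav>Chd1 libraries. CG42566, 544 bases further on the same strand, had 32.3, 31.4 and 29.8 TPM in Chd1-deficient libraries, 33.0, 30.4 and 27.3 TPM in elav>Chd1 libraries and 11.7, 14.6 and 14.3 TPM in wild-type libraries. CG30269 had 29.8, 32.6 and 30.8 TPM in Chd1-deficient libraries, 31.2, 23.0 and 26.3 TPM in elav>Chd1 libraries and 13.6, 11.4 and 13.7 TPM in wild-type libraries. CG43326 averaged 5.37 ± 0.909 TPM in Chd1-deficient, 5.87 ± 0.724 TPM in elav>Chd1 and 2.62 ± 0.114 TPM in wild-type libraries. The ratios of these last 3 and of CG34446 lay between 2.05 and 2.41.

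Of the other genes within that span 9 passed the filter, 7 of them CG-named and so below the thresholds by the choice itself. Against wild type 8 were called higher and 0 lower in Chd1-deficient libraries, and 7 higher and 0 lower in elav>Chd1 libraries (limma). These counts include CG42867, which passed the filter only through its Chd1-deficient and elav>Chd1 libraries. Its means were 1.07 TPM in Chd1-deficient, 0.910 TPM in elav>Chd1 and 0.0582 TPM in wild-type libraries. CG30196 and Cyp6d2 were also low, with means of 2.30 and 2.45 TPM in Chd1-deficient libraries. All genes tested had shares of 42.9% higher and 46% lower in Chd1-deficient, and 30.6% and 47.3% in elav>Chd1 libraries. CG34445 averaged 7.49 ± 0.667 TPM in Chd1-deficient, 6.63 ± 0.617 TPM in elav>Chd1 and 3.42 ± 0.102 TPM in wild-type libraries (log2 fold change against wild type 1.03 in Chd1-deficient and 0.86 in elav>Chd1, limma, adjusted p = 1.4e-06 and 1.7e-05). CG13510, which overlaps CG42565, was the most abundant of the 9 and averaged 135 ± 3.64 TPM in Chd1-deficient, 95.8 ± 7.07 TPM in elav>Chd1 and 59.0 ± 9.46 TPM in wild-type libraries (log2 fold change against wild type 1.20 in Chd1-deficient and 0.70 in elav>Chd1). CG4250 averaged 70.2 ± 2.75 TPM in Chd1-deficient, 65.1 ± 2.20 TPM in elav>Chd1 and 41.7 ± 0.927 TPM in wild-type libraries (log2 fold change against wild type 0.74 in Chd1-deficient and 0.64 in elav>Chd1). CG3746 averaged 3.85 ± 1.28 TPM in Chd1-deficient, 4.33 ± 0.405 TPM in elav>Chd1 and 1.27 ± 0.477 TPM in wild-type libraries. CG13511, which also overlaps CG42565, averaged 5.86 ± 0.672 TPM in Chd1-deficient, 4.25 ± 0.519 TPM in elav>Chd1 and 4.17 ± 0.818 TPM in wild-type libraries, and its log2 fold change for elav>Chd1 against wild type was 0.03 (limma, adjusted p = 0.83). The RNA gene lncRNA:CR42868 averaged 1.68 ± 1.12 TPM in Chd1-deficient, 1.58 ± 0.261 TPM in elav>Chd1 and 1.94 ± 0.283 TPM in wild-type libraries and was called in neither comparison.

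**Figure D4:**
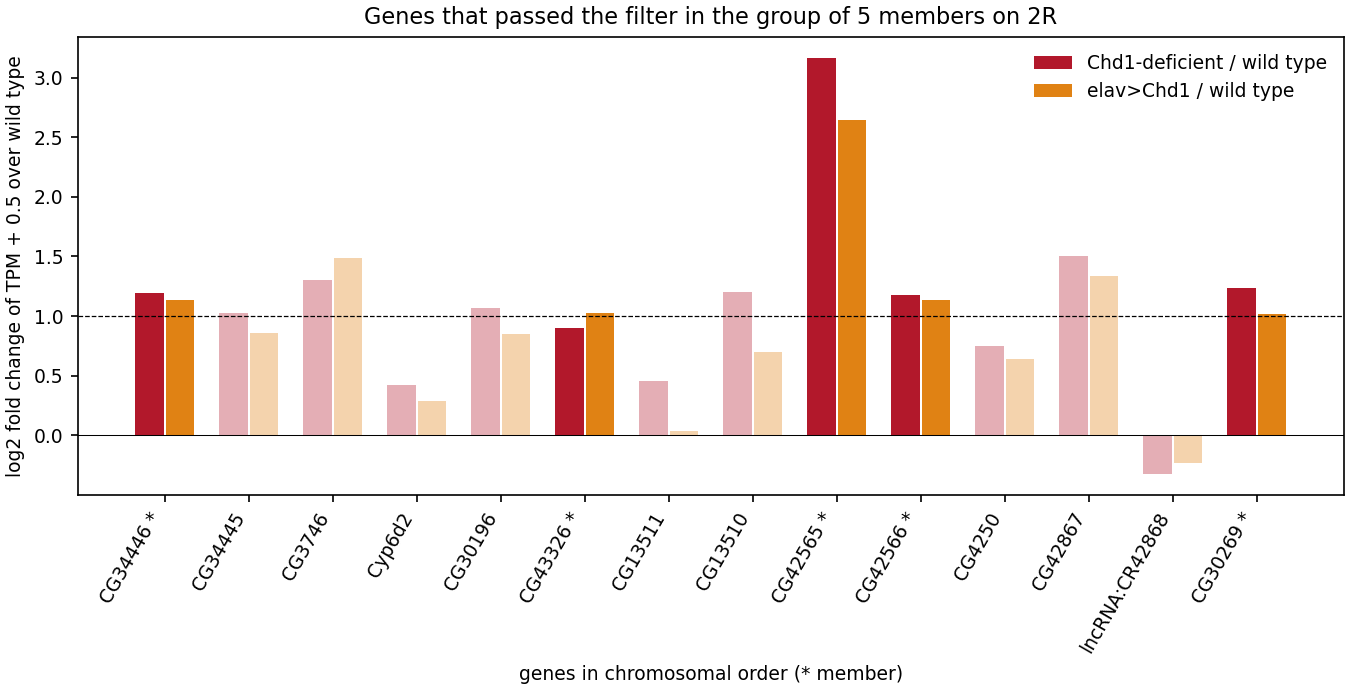
Log2 fold change against wild type, on the log2(TPM + 0.5) scale, in Chd1-deficient (left bars) and elav>Chd1 libraries (right bars) for genes that passed the filter in the group of 5 on 2R, in chromosomal order. The 5 chosen genes are marked with an asterisk and drawn in full colour; CG42565 is the tallest, and the dashed line marks a log2 fold change of 1.

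Pairs of genes within 20 kb differed in how alike they were. On 3L, CG10154 stood at 7.46 times the wild-type mean in Chd1-deficient libraries and 5.83 times in elav>Chd1 libraries. CG14109, 3773 bases away with CG10725 and CG10140 between, had 37.6, 39.0 and 37.9 TPM in Chd1-deficient libraries, 27.3, 27.7 and 29.1 TPM in elav>Chd1 libraries and 8.41, 9.58 and 10.4 TPM in wild-type libraries, with means 4.04 times the wild-type mean in Chd1-deficient libraries and 2.96 times in elav>Chd1 libraries. BaraC and CG10307 lie within 2351 bases of 2R, and CG10307 had 9.87, 8.35 and 10.4 TPM in Chd1-deficient libraries, 6.97, 8.66 and 8.30 TPM in elav>Chd1 libraries and 2.35, 2.60 and 2.17 TPM in wild-type libraries, with Tim10 and CG42497 on the other strand. CG17562 and CG17560, 795 bases apart on 3R, were both higher in elav>Chd1 libraries than in Chd1-deficient ones. CG17562 averaged 6.92 ± 0.465 TPM in Chd1-deficient, 8.98 ± 1.11 TPM in elav>Chd1 and 2.25 ± 0.208 TPM in wild-type libraries. CG17560 averaged 25.0 ± 0.327 TPM in Chd1-deficient, 29.5 ± 0.369 TPM in elav>Chd1 and 11.8 ± 0.327 TPM in wild-type libraries.

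CG9297, also on 3R, averaged 115 ± 2.60 TPM in Chd1-deficient, 113 ± 3.01 TPM in elav>Chd1 and 32.8 ± 2.52 TPM in wild-type libraries. CG9312, 4391 bases away, averaged 14.2 ± 1.12 TPM in Chd1-deficient, 14.1 ± 2.52 TPM in elav>Chd1 and 5.05 ± 1.23 TPM in wild-type libraries. Between them lies Cht5, a chitinase gene, which averaged 10.1 ± 0.966 TPM in Chd1-deficient, 0.929 ± 0.0656 TPM in elav>Chd1 and 0.981 ± 0.239 TPM in wild-type libraries. Cht5 was called higher in Chd1-deficient libraries than in wild type (log2 fold change 2.85, limma, adjusted p = 1.4e-08), while in elav>Chd1 libraries its log2 fold change was -0.04 (limma, adjusted p = 0.79). CG45076 averaged 56.3 ± 3.11 TPM in Chd1-deficient, 52.0 ± 0.694 TPM in elav>Chd1 and 21.8 ± 1.66 TPM in wild-type libraries. CG14687, 15529 bases away, averaged 55.3 ± 1.34 TPM in Chd1-deficient, 43.0 ± 2.76 TPM in elav>Chd1 and 14.7 ± 0.752 TPM in wild-type libraries. The gene fau, which overlaps CG45076 on the same strand, met the same thresholds and averaged 148 ± 3.62 TPM in Chd1-deficient, 158 ± 1.84 TPM in elav>Chd1 and 65.9 ± 2.30 TPM in wild-type libraries.

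In the remaining 4 pairs the levels were modest, the highest being that of CG9338. CG14277 stood at 5.01 times the wild-type mean in Chd1-deficient libraries and 3.67 times in elav>Chd1 libraries. CG8086, 733 bases away, stood at 2.93 times the wild-type mean in Chd1-deficient libraries and 2.18 times in elav>Chd1 libraries. CG31676 averaged 18.2 ± 0.796 TPM in Chd1-deficient, 18.4 ± 1.47 TPM in elav>Chd1 and 7.71 ± 0.383 TPM in wild-type libraries. CG9338, 16032 bases away with 5 other genes of the files inside the span of the pair, averaged 49.1 ± 3.10 TPM in Chd1-deficient, 42.0 ± 2.31 TPM in elav>Chd1 and 19.9 ± 2.57 TPM in wild-type libraries. CG14949 had elav>Chd1 as the higher genotype and averaged 19.97 ± 0.854 TPM in Chd1-deficient, 21.1 ± 0.506 TPM in elav>Chd1 and 9.48 ± 1.85 TPM in wild-type libraries. CG1143, 1943 bases away, had Chd1-deficient as the higher genotype and averaged 17.3 ± 1.20 TPM in Chd1-deficient, 12.6 ± 0.493 TPM in elav>Chd1 and 5.67 ± 0.634 TPM in wild-type libraries. Of the serine protease pair CG17475 and CG31267, CG17475 was higher in Chd1-deficient and CG31267 in elav>Chd1 libraries; CG4053 and CG31266 lie between them.

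The genes beside the 124 were taken as the nearest annotated gene in the files on each side that does not overlap and is not itself one of the 124. There were 240 of them, at a median distance of 898 bases, and 178 passed the filter. Against wild type, 105 (59.0%) were called higher and 53 (29.8%) lower in Chd1-deficient libraries, beside 42.9% and 46% over all genes tested. In elav>Chd1 libraries 78 (43.8%) were called higher and 59 (33.1%) lower, beside 30.6% and 47.3% over all genes tested. The filter admits genes that reach 1 TPM in the Chd1-deficient libraries alone. With 1 of these libraries left out at a time, 162 or 163 neighbours were tested. In Chd1-deficient libraries 52.8% to 55.6% of them were then called higher, beside 35.9% to 36.1% over all genes. Called lower were 30.2% to 31.9%, beside 49.1% to 50.2%. The balance turned among more abundant genes. Of 105 neighbours that reached 10 TPM in 3 libraries, 43 (41%) were called higher and 50 (47.6%) lower in Chd1-deficient libraries, beside 24.8% and 65% of the 7472 genes at that level. In elav>Chd1 libraries 36 (34.3%) of the 105 were called higher and 54 (51.4%) lower, beside 21.1% and 64%. Of the 178, 92 have other names than a CG number, and none of these met the thresholds used for the 124 genes. A log2 fold change of at least 1 in size in both comparisons was found in 18 (10.1%), 16 of them higher in both, where 6.71% of all genes tested had such changes.

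The neighbour with the largest smaller change was Cpr92F, a cuticle protein gene beside CG4000, with 103, 107 and 103 TPM in Chd1-deficient libraries, 25.8, 26.7 and 24.9 TPM in elav>Chd1 libraries and 3.30, 3.19 and 3.44 TPM in wild-type libraries. Next came CG14406, beside CG12398, which averaged 3.69 ± 0.602 TPM in Chd1-deficient, 9.18 ± 2.09 TPM in elav>Chd1 and 0.464 ± 0.123 TPM in wild-type libraries. The gene phr6-4, a photolyase that repairs DNA lesions made by ultraviolet light, lies beside CG17470 and had 25.9, 25.5 and 25.5 TPM in Chd1-deficient libraries, 14.2, 16.7 and 16.4 TPM in elav>Chd1 libraries and 3.68, 3.61 and 3.09 TPM in wild-type libraries. In Cpr92F and phr6-4 the Chd1-deficient libraries were highest, while in CG14406 the elav>Chd1 libraries were highest, and wild-type libraries were lowest in all 3.

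Cpr49Ab, another cuticle protein gene, beside CG13155, had 88.1, 84.3 and 93.5 TPM in Chd1-deficient libraries, 62.3, 56.7 and 57.3 TPM in elav>Chd1 libraries and 14.2, 14.7 and 14.9 TPM in wild-type libraries. CG40198, beside CG12581, averaged 19.1 ± 0.806 TPM in Chd1-deficient, 6.11 ± 0.652 TPM in elav>Chd1 and 1.35 ± 0.369 TPM in wild-type libraries. These 5 neighbours had the largest smaller log2 fold changes against wild type. They ran from 2.12 in CG14406 to 4.78 in Cpr92F for Chd1-deficient and from 1.85 in CG40198 to 3.31 in CG14406 for elav>Chd1. Apart from CG14406, the limma adjusted p lay between 1.1e-12 and 1.3e-06. CG14406 passed the filter of 1 TPM only through its Chd1-deficient and elav>Chd1 libraries, so its changes are given without a test. TotM, a stress-induced secreted protein gene beside CG14022, was next and went in opposite directions, with 101 ± 0.948 TPM in Chd1-deficient, 5.96 ± 1.68 TPM in elav>Chd1 and 18.8 ± 1.46 TPM in wild-type libraries. Acp1, an adult cuticle protein gene beside CG7214, followed with 713, 711 and 699 TPM in Chd1-deficient libraries, 115, 109 and 103 TPM in elav>Chd1 libraries and 37.0, 36.9 and 36.4 TPM in wild-type libraries.

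The authors' deposited table of Chd1-deficient against wild type, which is limited to genes with a log2 fold change of about 1 or more in size, lists 123 of the 124 genes, all with a positive sign, and does not list CG30160. The choice required at least 2 times the wild-type mean, so the sign, and largely the listing, follow from it. Of 5307 genes listed there, 5069 were higher in Chd1-deficient libraries. In the authors' deposited table the log2 fold changes of these genes have a median of 1.60 and run from 1.10, for CG5958, to 4.11, for CG7214. The authors' deposited table of Chd1-deficient against elav>Chd1 lists none of the 124, and the allowed ratio between 0.67 and 1.5 keeps their differences below the limit of that table.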

How the data were processed

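RNA was measured in 9 libraries, 3 per genotype, matched to genotypes by the sample labels. The authors deposited 1 column of TPM per library; per the submitters' processing notes Salmon and DESeq2 were used, with no version or role stated, and strandedness and genome build are not given in the sources used here. Besides these, the authors deposited 2 tables of log2 fold changes for genes past a fold limit, with a p-value, a test score and a mean signal over libraries per gene; only the log2 fold changes of the 124 genes are printed from them. Depth is unknown, because TPM does not keep it, so no counting interval is given.

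Genes were chosen by symbol and by mean TPM as the text states. Genome-wide calls came from limma-trend on log2(TPM + 0.5), a scale that understates the change of low genes, with all 9 libraries and 1 mean per genotype in the fit, over the 11094 genes that reached 1 TPM in 3 or more libraries. Some genes reached this in the Chd1-deficient libraries alone, so the filter favours their calls as higher there. With 1 Chd1-deficient library left out at a time, 10034 to 10047 genes were tested. Adjusted p-values are Benjamini-Hochberg over these genes, and the threshold was 0.05. The test was tried on simulated tables with known changes before use. No further scaling was applied. Median log2 fold changes of all genes tested were -0.05 (Chd1-deficient against wild type), -0.15 (elav>Chd1 against wild type) and -0.02 (Chd1-deficient against elav>Chd1).

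The 124 genes, the marker lists and the thresholds were chosen with earlier results of these data known, and the 6 gene families, read from RefSeq names, were chosen after the 124 genes were seen. Named genes are the 10 with the largest smaller ratio to wild type, the 6 with the highest mean, those within 20 kb of another, those with another name, the 3 just inside and the 3 just outside the limit, Chd1, elav, w, the leading 5 genes with other names, and neighbours with log2 fold changes of 1 or more in size in both comparisons with wild type, of which the leading 7 are given. Other genes of lists, families and gene groups (among them Act57B, antdh, CG5867, COX5A, COX7AL, Hsp26, Cht5, CG3746 and CG34445) were chosen after their values were seen.

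Coordinates are those of Ensembl 115 (BDGP6.54), in which 16766 of 16837 symbols were found, 750 of them through a synonym; roles come from RefSeq names. Protein identity and promoter motifs, planned as further features, were not analysed here. Alternatives were no filter, at least 10 TPM, pseudocounts of 0.1 and 1, median-ratio scaling, the 2 groups alone, a replicate block, a log2 fold change of at least 1, each library left out, and other limits of the choice. The fit ran in limma 3.58.1 under R 4.3.3; tables were handled with pandas 2.3.3 and plots drawn with matplotlib 3.10.9 under Python 3.11.15.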

Additional observations from a re-analysis of the deposited data

How the results depend on the processing

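The number of CG-named genes chosen moved with the limits: 267 met a fold of 1.5, 34 a fold of 3, 219 a lowest level of 1 TPM, 85 one of 10 TPM and 80 a ratio between 0.8 and its inverse for the 2 genotypes, against 124. Median-ratio scaling gave 142, which included all 124. Leaving out each library gave 125 to 133, and 119 to 123 of the 124 remained. Requiring a log2 fold change of 1 or more in size left 3231 genes called for Chd1-deficient against wild type, 937 for elav>Chd1 against wild type and 1921 for Chd1-deficient against elav>Chd1, against 9859, 8642 and 7583. It left 69 and 20 neighbours called for Chd1-deficient and elav>Chd1 against wild type, against 158 and 137, and 64 marker genes for elav>Chd1 against wild type and 82 for Chd1-deficient against elav>Chd1, against 156 and 164. A lowest level of 10 TPM, which tests fewer genes, left 4994 genes called for Chd1-deficient against elav>Chd1 and 93 and 90 neighbours for the comparisons with wild type. Leaving out each library gave 8559 to 9982, 8108 to 8770 and 5715 to 8292 genes called in the 3 comparisons, 137 to 157 and 126 to 140 neighbours, and 162 to 171, 153 to 158 and 155 to 167 marker genes. No pairing of the libraries by replicate number was seen, since 1 of 9 same-numbered pairs deviated together with a correlation above 0.1 (range -0.155 to 0.108). Such correlations cannot show whether same-numbered libraries were collected or prepared together. With the number as a block, 9821, 8525 and 7421 genes, 157 and 134 neighbours and 167, 157 and 164 marker genes were called. No called direction of a named gene was reversed under these alternatives, but the balance of higher and lower calls turned in places. For Chd1-deficient against wild type it was 6760 higher and 5154 lower with no filter and 3003 and 228 with the fold limit, against 4758 and 5101. For elav>Chd1 against wild type it was 798 and 139 with the fold limit, against 3394 and 5248. For Chd1-deficient against elav>Chd1 it was 1596 and 3398 at 10 TPM, 3764 and 4501 under median-ratio scaling, 4040 and 4184 with the 2 groups alone, and more lower than higher without any 1 Chd1-deficient library or wild-type library 3, against 3847 and 3736. Neighbours turned at 10 TPM, as given above. The family counts printed, tried after they were seen, turned to the opposite balance in no alternative. Because depth is unknown, differences at low TPM cannot be given a counting error.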
